A study of Mus musculus with 8 samples.

Results

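The genes examined here encode the CD8 coreceptor, the CD3 chains of the T cell receptor and the first kinases and adaptor of its signal. The rule took every probe whose annotated gene symbol was Cd8a, Cd8b1, Cd3d, Cd3e, Cd3g, Cd247, Lck, Zap70 or Lat. It found 10 of the 24048 probes, for 7 of the 9 genes; Cd8a and Lck had no probe under their symbols and were not analysed here. Cd8b1, Cd247 and Zap70 had 2 probes each, called the brighter and the dimmer probe by their mean signal over all samples. All 10 probes passed the filter on dim probes, a mean over the 8 arrays above the median of all probes.

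Signal was measured on 1-colour arrays in virus-specific CD8 T cells from 2 groups of 4 samples. The CKO group came from mice with both Blimp-1 alleles floxed and a granzyme B-driven Cre transgene (Blimp-1flox/flox x GranzymeB-cre+), and the WT group from wild-type littermates. Because this Cre follows the granzyme B promoter, deletion depends on activation of that promoter in each cell. All mice had been infected with 200000 plaque-forming units of lymphocytic choriomeningitis virus, Armstrong strain, and on day 8 spleen cells binding CD8 antibody and the tetramers DbGP33-41 and DbNP396-404 were sorted; no age is stated for the mice. Values are log2 signals between 5.33 and 15.15, and every difference is CKO minus WT.

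As background, a T cell recognises a peptide on a class I molecule with its T cell receptor, which has no signalling tail of its own. The CD3 chains gamma, delta and epsilon and the zeta chain, encoded by Cd247, carry the tyrosine motifs that become phosphorylated. CD8, a dimer of an alpha and a beta chain, binds the same class I molecule and brings the kinase Lck to the receptor. Lck phosphorylates the motifs, the kinase Zap70 docks on them, and Zap70 phosphorylates the membrane adaptor Lat, on which the downstream complexes assemble. CD8 staining and tetramer binding were used for the sort, so the presence of the receptor and coreceptor transcripts is set by the selection.

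Of the 8 samples, CKO2 and WT2 had a weak 18S ribosomal RNA control probe, at 10.8 in CKO2 and 11.2 in WT2 against 12.5 to 12.99 in the others, and CKO1 and WT1 stood apart by the Y-linked transcript Eif2s3y, at 10.5 to 10.9 against 5.73 to 6.52. Prdm1, which encodes Blimp-1, was measured by 2 probes that went opposite ways. The first lay at 6.29 to 6.65 in CKO and 7.51 to 8.07 in WT samples, a difference of -1.28 (limma adjusted p = 0.00121). The other lay at 8.65 to 9.27 in CKO and 5.59 to 6.11 in WT samples, a difference of 3.20 (limma adjusted p = 4.43e-06). Whether either probe lies in the floxed exons is not known here, so they do not settle the labels. The labelled cell type was borne out by its markers: the 4 CD8 T cell markers with a probe, Cd8b1, Cd3d, Cd3e and Cd3g, which are themselves among the genes examined, were bright in every sample, and Cd4, Cd40lg and Foxp3 lay at 5.66 to 6.13 in CKO and 5.78 to 6.15 in WT samples, near the bottom of the scale.

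None of the 10 probes passed the threshold between CKO and WT (limma with Benjamini-Hochberg adjustment over 11991 tested probes, adjusted p under 0.05), where 6.67% of all tested probes did, 2.54% lower and 4.13% higher in CKO. At an unadjusted p under 0.05 there were 3, both Cd8b1 probes and Cd3e, against 20.8% of all tested probes (9.78% with CKO lower). In these 3 the CKO mean lay below the WT mean by 0.33 to 0.58. The other 7 probes differed by at most 0.12 in either direction. In 7 of the 10 the CKO mean was below the WT mean, against 52.5% of all tested probes. The median difference over the 10 probes was -0.06, and over all tested probes -0.01; the median size of the difference was 0.06 for the 10 and 0.13 for all. A threshold missed does not show equal levels, and the 95% intervals given with each gene state which differences remain possible.

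**Figure D1:**
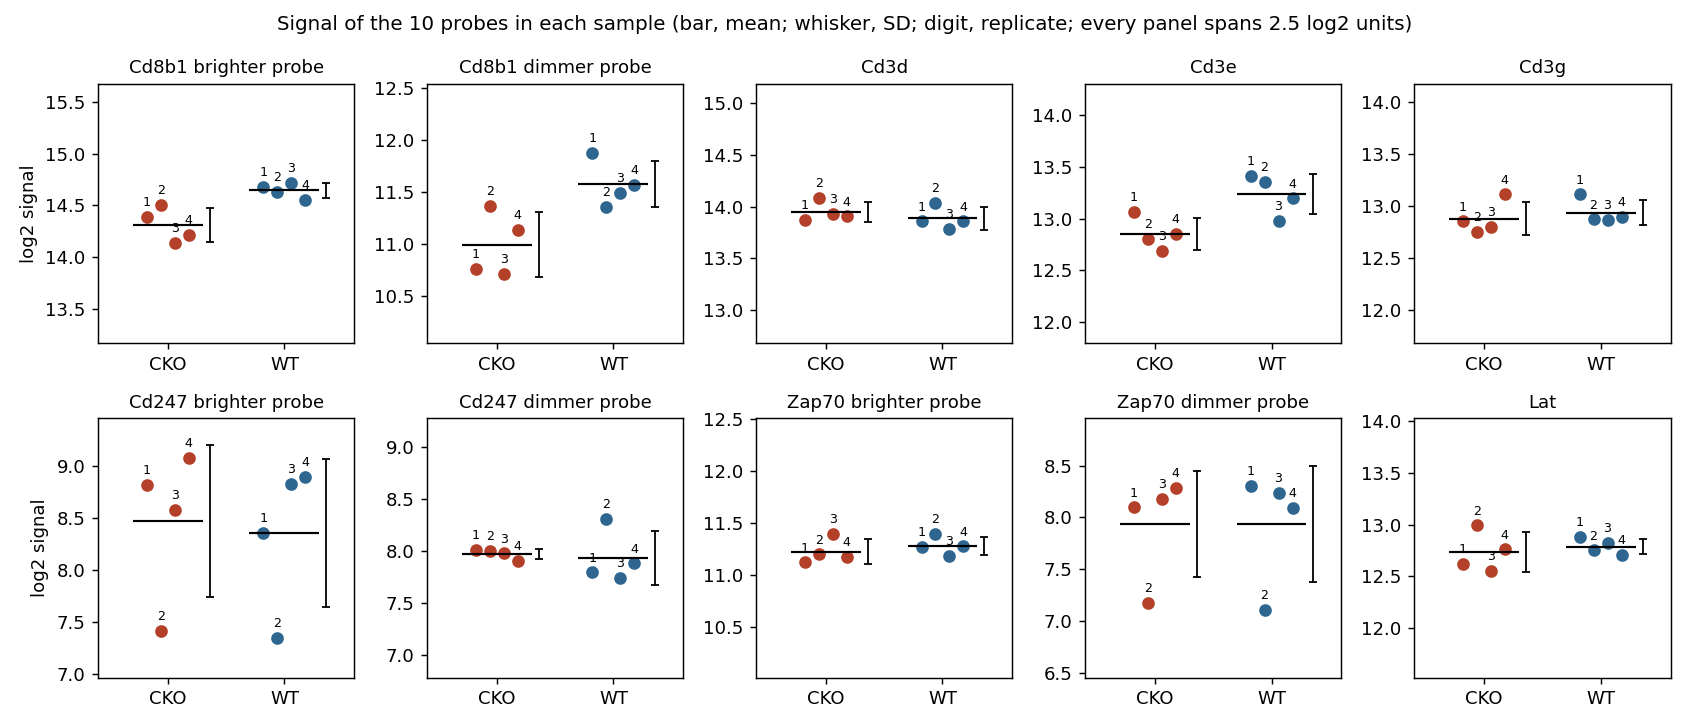
Log2 signal of each of the 10 probes in the 4 CKO samples (left in each panel) and the 4 WT samples (right), with mean, SD and replicate number; panels have different centres but the same span. The groups separate without overlap on the brighter Cd8b1 probe alone, and sample 2 of both groups lies low on the brighter Cd247 and the dimmer Zap70 probe.

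Cd8b1 encodes the beta chain of CD8, which raises the sensitivity of the coreceptor for class I molecules. Its brighter probe read 14.39, 14.50, 14.14 and 14.21 in CKO1 to CKO4, against 14.68, 14.63, 14.71 and 14.55 in WT1 to WT4. Every CKO sample lay below every WT sample, the only one of the 10 probes without overlap; among all tested probes 5.68% had groups that did not overlap with CKO lower, and 13.7% in either direction. The means were 14.31 ± 0.17 in CKO and 14.64 ± 0.07 in WT (SD, n = 4 each), a difference of -0.33 (SE 0.10, 95% interval -0.56 to -0.10, limma adjusted p = 0.0898). Converted to the linear scale, that log2 difference puts CKO 20.7% below WT. This probe was brighter than 99.8% of all probes on the arrays.

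The dimmer Cd8b1 probe read 10.76, 11.37, 10.71 and 11.13 in CKO1 to CKO4, against 11.88, 11.36, 11.49 and 11.57 in WT1 to WT4. CKO1, CKO3 and CKO4 lay below every WT sample, and CKO2 lay level with WT2, the lowest WT sample. The means were 10.99 ± 0.31 in CKO and 11.57 ± 0.22 in WT (SD, n = 4 each), a difference of -0.58 (SE 0.17, 95% interval -0.95 to -0.21, limma adjusted p = 0.0657), or 33.3% on the linear scale. Both probes of the gene thus had the same direction, and without CKO2 both passed, at -0.40 for the brighter probe (limma adjusted p = 0.0416) and -0.71 for the dimmer one (limma adjusted p = 0.0215). Both also passed without CKO2 and WT2 together, at -0.40 and -0.78 (limma adjusted p = 0.0477 and 0.0136), and with limma's trend and robust settings (adjusted p = 0.0387 and 0.0486). Neither passed with the replicate number as a block (limma adjusted p = 0.0682 for the brighter and 0.0573 for the dimmer probe). Of the 8 fits that left out 1 sample, only that without CKO2 called either probe, and adjusted p reached 0.268 for the brighter and 0.205 for the dimmer probe without CKO3. Without CKO1 and WT1 the differences were -0.35 and -0.40 (limma adjusted p = 0.242 and 0.296).

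Cd3d, Cd3e and Cd3g encode the delta, epsilon and gamma chains of CD3 and are neighbours on mouse chromosome 9. Epsilon pairs with either of the other chains in the assembled receptor. Their start regions are shown because these neighbours are compared with each other. The 250 bases before the start used for each gene are from RefSeq, assembly GRCm38.p6, in lower case. The annotated Cd3d gene begins at 44981769, and the Cd3e gene, on the minus strand, at 45009663. The last bases of these windows therefore lie inside the annotated genes. Capitals mark GAAAG or its reverse complement CTTTC, the core that Blimp-1 is known to recognise.

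Cd3d, GRCm38.p6 chr9:44981536-44981785, plus strand: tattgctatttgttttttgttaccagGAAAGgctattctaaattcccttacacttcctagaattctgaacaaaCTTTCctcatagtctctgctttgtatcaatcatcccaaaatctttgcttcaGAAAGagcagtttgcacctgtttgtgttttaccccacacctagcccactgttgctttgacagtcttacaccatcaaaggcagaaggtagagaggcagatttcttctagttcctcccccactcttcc

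Cd3e, GRCm38.p6 chr9:45009612-45009861, minus strand: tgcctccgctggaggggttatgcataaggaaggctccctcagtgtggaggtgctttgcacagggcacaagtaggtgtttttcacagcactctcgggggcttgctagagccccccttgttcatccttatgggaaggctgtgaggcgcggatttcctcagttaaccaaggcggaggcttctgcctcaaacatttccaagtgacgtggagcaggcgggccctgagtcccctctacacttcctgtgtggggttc

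Cd3g, GRCm38.p6 chr9:44980432-44980681, minus strand: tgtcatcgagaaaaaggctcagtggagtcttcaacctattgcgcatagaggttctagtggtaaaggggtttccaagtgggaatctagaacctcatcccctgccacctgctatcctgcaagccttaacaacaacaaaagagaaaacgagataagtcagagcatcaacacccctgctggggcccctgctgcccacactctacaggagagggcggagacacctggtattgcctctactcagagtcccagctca

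The Cd3d window held GAAAG 2 times on the strand shown and 1 time on the opposite strand, and the Cd3e and Cd3g windows held it on neither strand. Among 32851 such windows of all genes, 51.5% held GAAAG on either strand. The longer GTGAAAG, which contains the first motif, was in 3.57% of all windows and in none of the 3. A match is a run of letters and not a binding site, and no binding was measured. Cd8b1 had no window in this table.

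Cd3e read 13.06, 12.81, 12.69 and 12.85 in CKO1 to CKO4, against 13.41, 13.35, 12.98 and 13.19 in WT1 to WT4. The groups overlapped through CKO1, which lay above WT3. The means were 12.85 ± 0.16 in CKO and 13.23 ± 0.19 in WT (SD, n = 4 each), a difference of -0.38 (SE 0.12, 95% interval -0.66 to -0.11, limma adjusted p = 0.0982), or 23.3% on the linear scale. CKO lay below WT within each of the 4 same-numbered pairs, with differences of -0.54 to -0.29. With the number as a block Cd3e passed (limma adjusted p = 0.0283), which no other of the 10 probes did. The block called 1360 of all tested probes, against 800 without it. Cd3e was called in 0 of the 8 fits that left out 1 sample (limma adjusted p from 0.0641 to 0.278). Nor did it pass without CKO2 and WT2 together (limma adjusted p = 0.187).

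Cd3d read 13.87, 14.08, 13.93 and 13.91 in CKO1 to CKO4, against 13.86, 14.04, 13.79 and 13.86 in WT1 to WT4. The groups overlapped, sample 2 was the highest of each, and the difference was 0.06 (95% interval -0.15 to 0.27, limma adjusted p = 0.784). Cd3g read 12.85, 12.75, 12.80 and 13.11 in CKO1 to CKO4, against 13.11, 12.87, 12.86 and 12.89 in WT1 to WT4. Each group had 1 high sample, CKO4 and WT1, and the difference was -0.06 (95% interval -0.30 to 0.18, limma adjusted p = 0.831).

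Whether the 3 CD3 genes differed between the groups to an unequal degree was tested on the within-sample log2 difference of their probes, a test chosen after the values were seen. Cd3e minus Cd3d averaged -1.10 ± 0.21 in CKO and -0.65 ± 0.15 in WT (SD, n = 4 each), and the groups did not overlap, by a margin of -0.810 in the highest CKO sample against -0.809 in the lowest WT sample. The change of -0.45 had an exact two-sided permutation p = 0.0286, the smallest that 4 against 4 samples can give, and p = 0.0857 after Benjamini-Hochberg adjustment over the 3 pairs of genes. Cd3e minus Cd3g shifted by -0.33 (exact permutation p = 0.0571, adjusted 0.0857) and Cd3g minus Cd3d by -0.12 (exact permutation p = 0.4, adjusted 0.4). None of the 3 contrasts passed after adjustment. Within the 4 same-numbered pairs, CKO minus WT of Cd3e minus Cd3d ran from -0.59 to -0.37 and of Cd3e minus Cd3g from -0.56 to -0.09, below 0 in 4 of 4 pairs for both. The exact paired permutation p, also chosen after seeing the data, was 0.125 for both, the smallest that 4 pairs can give, so the paired test could not have passed.

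**Figure D2:**
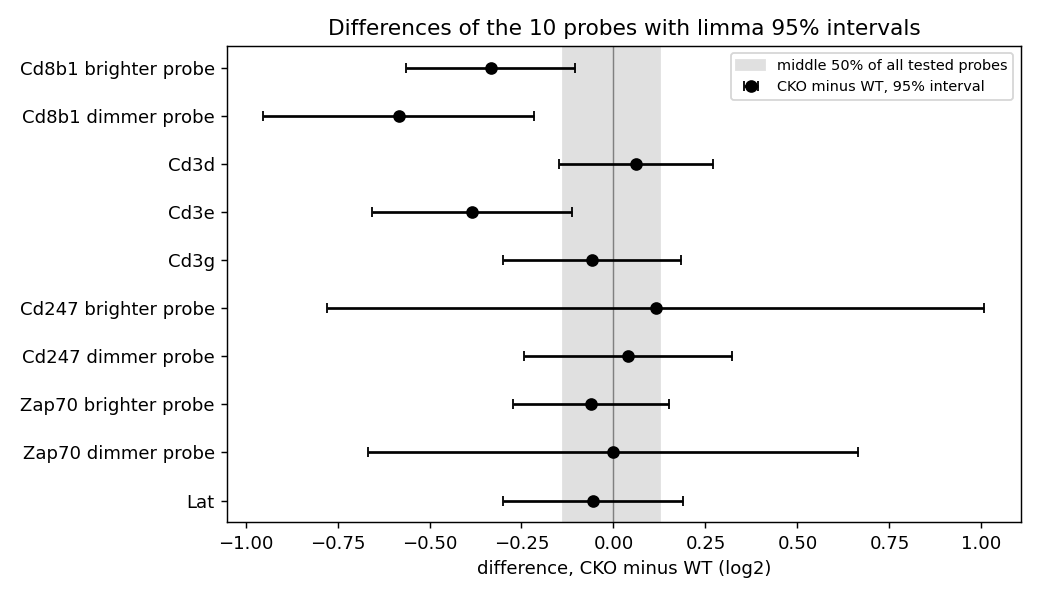
Difference of each probe, CKO minus WT in log2 units, with its limma 95% interval, over a band that holds the middle 50% of the differences of all tested probes (-0.14 to 0.13). The intervals of both Cd8b1 probes and of Cd3e lie below 0, and those of the brighter Cd247 and the dimmer Zap70 probe are the widest.

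Cd247 encodes the zeta chain, which carries most of the receptor's tyrosine motifs, and its 2 probes disagreed in how they varied. The brighter probe read 8.82, 7.41, 8.58 and 9.08 in CKO1 to CKO4, against 8.36, 7.34, 8.83 and 8.90 in WT1 to WT4. Sample 2 lay below the mean of the other 3 by more than 1 log2 unit in both groups, at -1.42 in CKO2 and -1.35 in WT2. The difference between the groups was 0.12, with a 95% interval of -0.78 to 1.01 (limma adjusted p = 0.917). The dimmer probe read 8.01, 8.00, 7.97 and 7.90 in CKO1 to CKO4, against 7.79, 8.31, 7.74 and 7.88 in WT1 to WT4. On this probe WT2 was the highest sample and CKO2 lay among the other CKO samples. Its difference was 0.04 (95% interval -0.24 to 0.32, limma adjusted p = 0.908).

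Zap70, the kinase that docks on the phosphorylated chains, showed the same kind of disagreement. Its brighter probe read 11.12, 11.20, 11.39 and 11.17 in CKO1 to CKO4, against 11.27, 11.40, 11.19 and 11.27 in WT1 to WT4. The groups overlapped throughout, with a difference of -0.06 and a narrow 95% interval of -0.27 to 0.15 (limma adjusted p = 0.795). Its dimmer probe read 8.10, 7.18, 8.18 and 8.28 in CKO1 to CKO4, against 8.30, 7.11, 8.24 and 8.09 in WT1 to WT4. Sample 2 again lay low in both groups, by -1.01 in CKO2 and -1.10 in WT2 against the mean of the other 3. The difference between the groups was -0.0011 (95% interval -0.67 to 0.66, limma adjusted p = 0.998).

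The brighter Cd247 and the dimmer Zap70 probe were low in the 2 samples with the weak 18S ribosomal RNA signal, and the other probe of each gene was not. Of 11986 tested probes with the values needed, 170, or 1.42%, had sample 2 at least 0.8 below the mean of the other 3 in both groups. These 2 were the only such probes among the 10, a count of low values only. Over the 8 samples they correlated with the 18S probe at Pearson r = 0.91 and 0.98. Cd3d, highest in sample 2 of both groups, went the opposite way at -0.89, as did the dimmer Cd247 probe at -0.68. The remaining probes lay between -0.50 and 0.50. Without CKO2 and WT2 the differences stayed small, at 0.13 for the brighter Cd247 probe and -0.02 for the dimmer Zap70 probe (limma adjusted p = 0.699 and 0.917). The part of RNA quality or of probe position in this pattern was not tested.

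**Figure D3:**
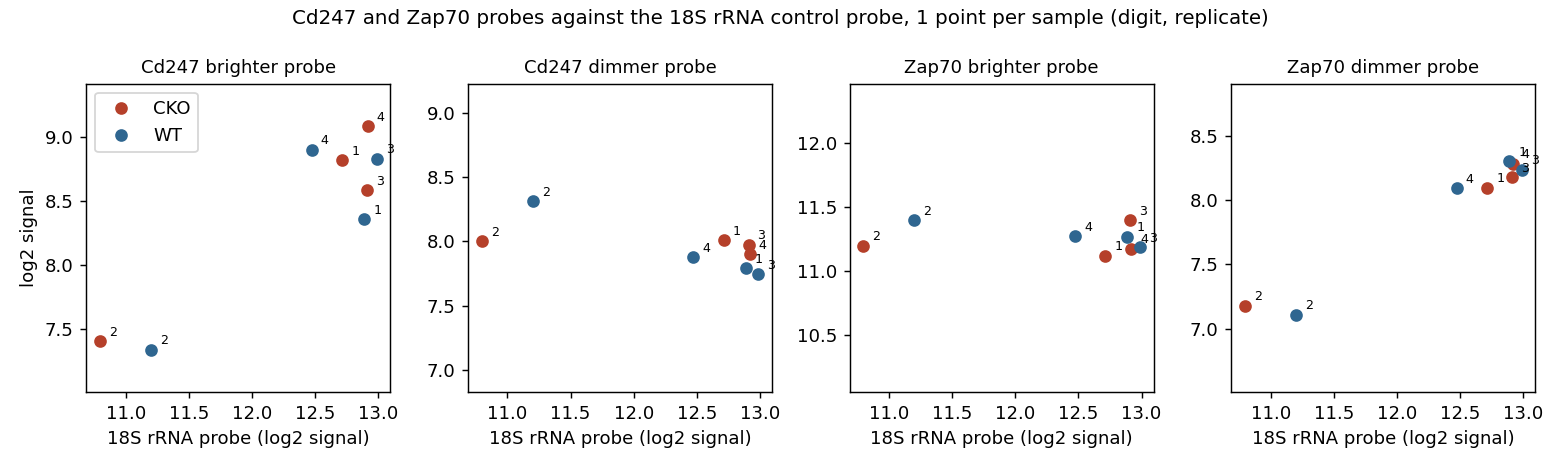
Log2 signal of the Cd247 and Zap70 probes against the 18S ribosomal RNA control probe, 1 point per sample, CKO and WT in different colours, numbered by replicate. CKO2 and WT2, at 10.8 and 11.2 on the horizontal axis, lie about 1 log2 unit below the other samples on the brighter Cd247 and the dimmer Zap70 probe, and do not on the other 2.

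Lat is the adaptor that Zap70 phosphorylates. Its probe read 12.62, 12.99, 12.56 and 12.76 in CKO1 to CKO4, against 12.88, 12.75, 12.82 and 12.71 in WT1 to WT4. The WT samples fell inside the CKO range, which ran from CKO3 to CKO2. The difference was -0.06 (95% interval -0.30 to 0.19, limma adjusted p = 0.843).

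In sorted bulk samples, fewer cells of a type and less RNA per cell cannot be told apart. Markers of red blood cell precursors, 3 of 5 with a probe, set CKO2 to CKO4 apart from CKO1 and the WT samples. Their summed linear signal was 230 to 439 in CKO2 to CKO4 and 13569 in CKO1, against 4528 to 13507 in WT samples. Of these markers, haemoglobin Hba-a1 read 13.68 in CKO1 and 6.60 to 8.29 in the other CKO samples, against 12.08 to 13.68 in WT. Summed dendritic cell markers, 5 of 5 with a probe, ran from 985 to 1361 in CKO and 1129 to 2953 in WT. Itgax, which activated T cells also express, gave most of that sum. Neutrophil markers, 4 of 5, ran from 556 to 928 in CKO and 684 to 1984 in WT. B cell markers, 3 of 5, ran from 374 to 441 in CKO and 407 to 679 in WT. Macrophage markers, 4 of 6, ran from 338 to 1829 in CKO and 341 to 791 in WT. Natural killer cell markers, 4 of 4, ran from 1442 to 2062 in CKO and 2082 to 3246 in WT. Singly these markers did not all follow that sum, so it was not read as a difference in natural killer cell content. Ncr1 lay near the bottom of the scale in every sample, at 5.73 to 5.95. Eomes overlapped, at 9.3 to 10.3 in CKO and 9.2 to 10.1 in WT. Klre1 ran from 9.3 to 9.5 in CKO and 9.4 to 10.2 in WT, and Klrb1c from 6.6 to 6.8 in CKO and 6.7 to 9.9 in WT. The 4 CD8 T cell markers with a probe summed to 47324 to 54625 in CKO and 55825 to 60829 in WT. These markers, Cd8b1, Cd3d, Cd3e and Cd3g, are the genes examined here. Their sum therefore restates those values and is no separate measure of CD8 T cell content. Singly, Cd8b1 alone did not overlap between the groups. The part of other cells in the Cd8b1 and Cd3e values was not tested.

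**Figure D4:**
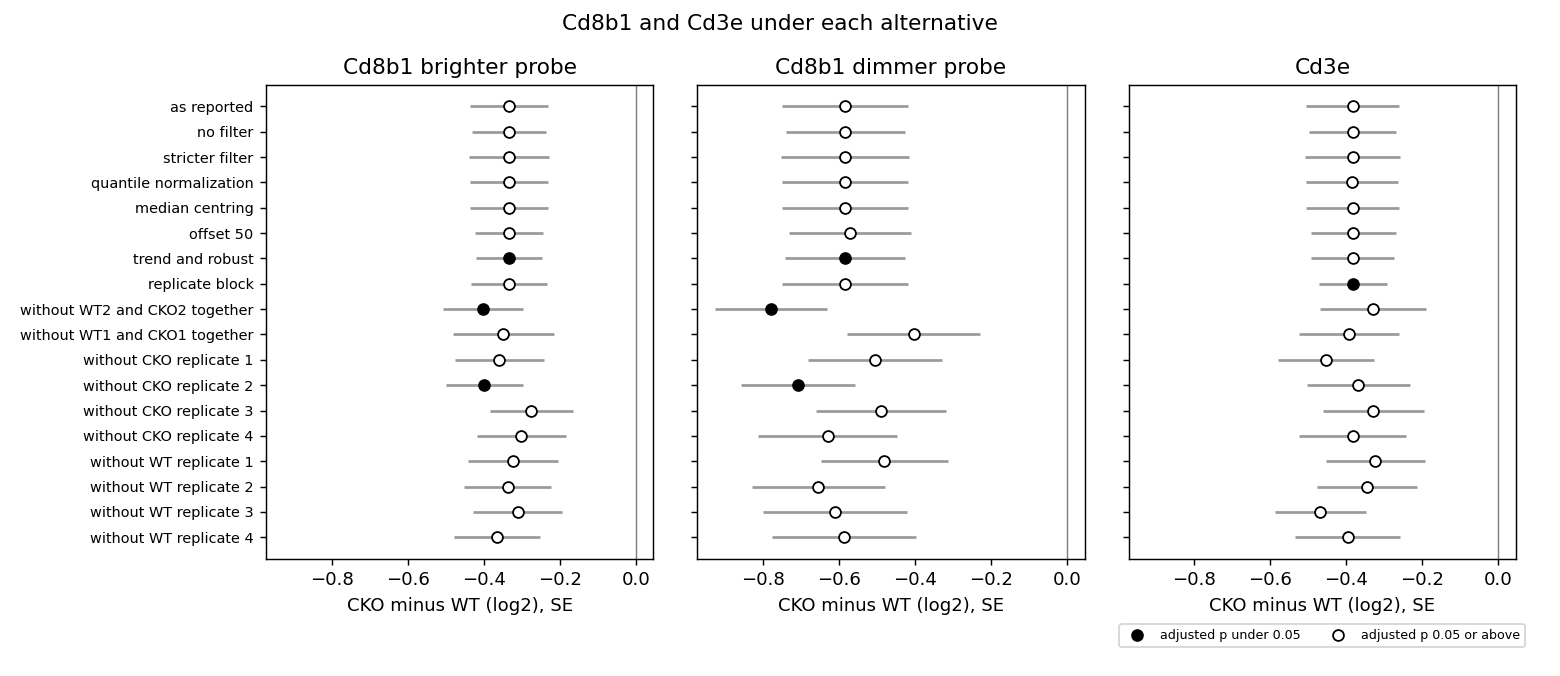
Difference, CKO minus WT in log2 units, with SE, for both Cd8b1 probes and Cd3e as reported and under each alternative, filled where the limma adjusted p was under 0.05. All values lie below 0; filled points are 3 for the brighter Cd8b1 probe, 3 for the dimmer one and 1 for Cd3e.

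Other genes were taken from a list of 55 names in 7 roles, of which 44 had a probe and 37 passed the filter on dim probes. The list held genes of proximal receptor signalling and a separate role named paralogues and signalling chains used by other cells. That name does not exclude their expression in CD8 T cells. Each gene was represented by its brightest probe, and limma p-values were adjusted over 8095 genes, of which 9.31% passed, 3.76% lower and 5.56% higher in CKO. On the list 5 genes fell in CKO, 1 rose and 31 did not pass, which is 16.2% called. The median difference on the list was -0.06, against -0.01 over all genes tested.

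Among 9 genes listed under the role named kinases and phosphatases acting on Lck, 1 fell and 8 did not pass. Unc119, an adaptor known from human T cells to activate Lck and Fyn, averaged 7.51 ± 0.17 in CKO and 8.20 ± 0.25 in WT (SD, n = 4 each). All CKO samples lay below all WT samples, and the difference was -0.69 (limma adjusted p = 0.0105). Csk, the kinase that phosphorylates Lck at its inhibitory tyrosine, and Ptprc, the CD45 phosphatase that removes that phosphate, did not pass, with differences of -0.0030 and -0.19 (limma adjusted p = 0.99 and 0.479). Among 11 adaptors and exchange factors around Lat, 2 fell, 1 rose and 8 did not pass. Nck2, an adaptor that links the receptor to the actin skeleton, averaged 9.50 ± 0.15 in CKO and 10.21 ± 0.11 in WT (SD, n = 4 each). Its difference was -0.71, with no overlap (limma adjusted p = 0.00243). Grap2, the adaptor Gads that joins Lat to Lcp2, averaged 6.56 ± 0.18 in CKO and 7.05 ± 0.19 in WT (SD, n = 4 each), a difference of -0.50 (limma adjusted p = 0.0342). Its CKO values lay near the array median of 6.15, and it lost its call in 6 of the 8 fits that left out 1 sample (limma adjusted p up to 0.113).

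Vav3, a guanine nucleotide exchange factor, averaged 7.96 ± 0.22 in CKO and 7.34 ± 0.14 in WT (SD, n = 4 each), a difference of 0.62 (limma adjusted p = 0.0115). A dimmer Vav3 probe near the floor differed by 0.14 (limma adjusted p = 0.581), and with the mean of its probes Vav3 did not pass (limma adjusted p = 0.0540). Among 5 negative regulators, 1 fell and 4 did not pass. Ubash3b, a phosphatase known to act on Zap70, averaged 6.74 ± 0.21 in CKO and 7.65 ± 0.35 in WT (SD, n = 4 each). The difference was -0.91, with no overlap between the groups (limma adjusted p = 0.00821). Its CKO values, 6.54 to 6.96, lay near the array median of 6.15, as those of Grap2 did.

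Among 4 genes of the role named paralogues and signalling chains used by other cells, 1 fell and 3 did not pass. Hcst, the adaptor DAP10 of the NKG2D receptor, averaged 12.59 ± 0.16 in CKO and 13.54 ± 0.21 in WT (SD, n = 4 each). The CKO samples ran from 12.38 to 12.78 and the WT samples from 13.25 to 13.75, a difference of -0.95 (limma adjusted p = 0.00139). By its mean over these sorted CD8 T cell samples, Hcst was brighter than 99.3% of all probes. Its role name thus does not assign its signal to other cells. None of the 6 genes downstream of Lat passed, and the smallest p was that of Malt1, a paracaspase of the pathway to NF-kappaB, at -0.33 (limma adjusted p = 0.113; with the replicate number as a block, 0.0442). The 1 receptor-associated gene tested, Trat1, differed by 0.16 and the 1 Tec family kinase tested, Tec, by -0.09 (limma adjusted p = 0.38 and 0.79).

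**Figure D5:**
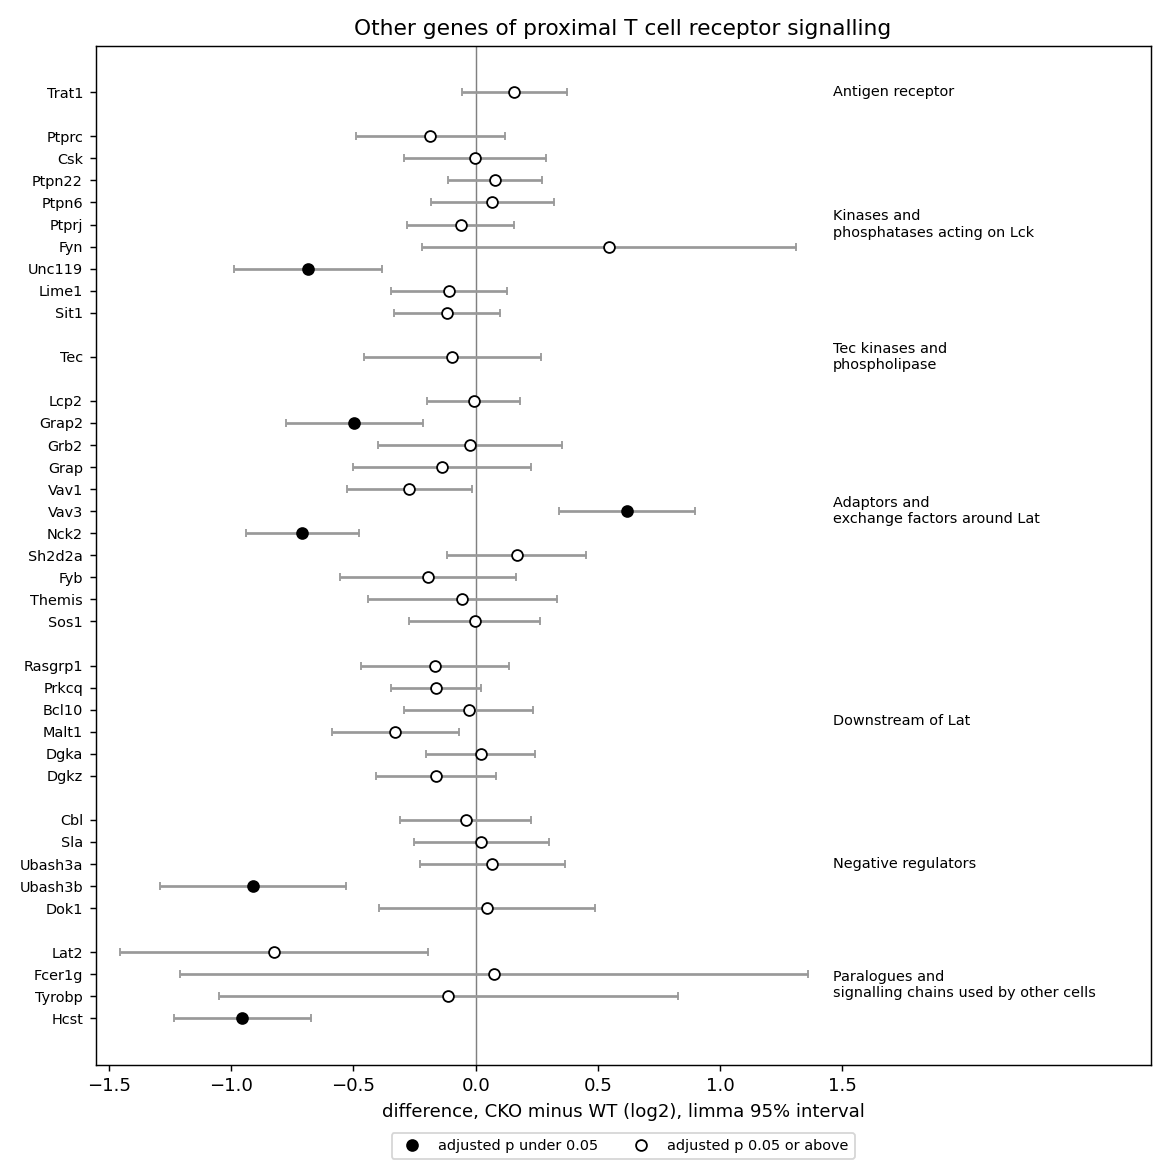
Difference, CKO minus WT in log2 units, with limma 95% interval, of the 37 tested genes of the signalling list, by role. These include 4 genes of the role named paralogues and signalling chains used by other cells. Filled points had an adjusted p under 0.05. The 6 filled points are Unc119, Grap2, Nck2, Ubash3b and Hcst on the left of 0 and Vav3 on the right.

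For each member the other gene with the most similar signal over the 8 samples was sought by Pearson correlation among 8086 genes. It was Iah1 for the brighter Cd8b1 probe (r = 0.986), Ldb1 for Cd3e (r = 0.976), Twist1 for Cd3d (r = 0.989) and Idh1 for Cd3g (r = 0.916). It was Ap1s1 for the brighter Cd247 probe (r = 0.993), Chrna2 for the brighter Zap70 probe (r = 0.916) and Ppp2r5e for Lat (r = 0.982). The number of genes above 0.9 ranged from 1 for Cd3g and 3 for Zap70 to 106 for Cd8b1 and 119 for Cd247, whose brighter probe is low in sample 2. These likenesses are descriptions over samples that share group and sample 2, and 3 of them are with probes near the floor, Twist1, Idh1 and Chrna2, with means of 6.16 to 6.66 in CKO and 6.17 to 6.81 in WT.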

How the data were processed

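Signal was measured in 8 samples on 1-colour arrays, on biotinylated cRNA; per the labels' protocols it was amplified with a kit from Illumina. The authors deposited 1 log2 value per probe and array. Scanner, background correction and normalization are steps not given in the sources used here; all deposited array medians were 6.15. Missing values made up 0.952% to 1.31% of each array. Arrays have no read depth; precision is limited by their number.

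Gene symbols came from the platform annotation (19397 probes with 1 symbol, 0 with several); list members were also matched through current symbols of assembly GRCm38.p6. Probes with a mean above 6.12, the median of all probes, were tested: 11991 probes, of which 5 had a missing value, and 8095 genes by brightest probe. The test was limma 3.58.1 (lmFit, eBayes; R 4.3.3) of CKO against WT, two-sided, and p-values were adjusted by Benjamini-Hochberg over every probe or gene tested. The script was tested on simulated data. The labels call the samples independent without naming animals; the p-values therefore reflect only how these samples vary, which may be partly technical.

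The members and lists were chosen with earlier results of these data known. Named genes are all members, up to 3 genes per role past the threshold (otherwise the 1 with the smallest p), Prdm1, and the gene most correlated with each member. Csk and Ptprc, and marker genes given singly, were named after their values were seen. Deviations of same-numbered samples from their group means correlated at 0.326, 0.467, 0.181 and 0.225 across probes, all above 0.1, so the numbers were treated as pairs in an alternative fit with the number as a block. Other alternatives changed the filter, scaling, an offset of 50, the variance model, the probe per gene and the samples used.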

Additional observations from a re-analysis of the deposited data

Results flagged for a closer look

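In 2 of 38 groups of 4 samples examined, 1 sample lay far from the other 3, by a gap to its nearest neighbour above Dixon's 95% critical share of the range; chance gives this in about 1 in 20 groups. On the dimmer Zap70 probe CKO2 lay at 7.18, against 8.10 to 8.28 in the other CKO samples. On the Cd3g probe WT1 lay at 13.11, against 12.86 to 12.89 in the other WT samples; without WT1 the difference of Cd3g, CKO minus WT, was 0.0005.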

How the results depend on the processing

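Under the alternatives tried, both Cd8b1 probes, Cd3d, Cd3e and the brighter Zap70 probe kept their direction, and 158 of 180 results of single member probes kept direction and side of the threshold. The number of member probes called was 2 with trend and robust settings, 1 with the replicate block and 2 without CKO2 and WT2. With 1 sample left out it was 0 to 2. Calls over all tested probes rose under the same settings. They numbered 838 with trend and robust settings, 1360 with the block and 1065 without CKO2 and WT2, against 800 in the fit reported. By an exact permutation test without adjustment the brighter Cd8b1 probe had p = 0.0286, the smallest 4 against 4 samples can give. Leaving out 1 sample gave 402 to 867 genes called (148 to 397 lower and 254 to 470 higher), 361 to 988 probes, and 5 to 8 genes of the signalling list (4 to 6 lower, 1 to 2 higher). The lowest counts, 402 genes and 361 probes, were without CKO3; without WT1 they were 457 and 451. Without CKO4 184 genes were called lower and 494 probes in all, and without WT3 515 probes. With the replicate block 1134 genes (530 lower) and 1360 probes were called, against 754 genes and 800 probes without it; of the 754 genes 751 were kept. On the signalling list the block called 9 genes, 7 lower and 2 higher, and leaving out CKO2 and WT2 also gave 2 higher; the stricter filter gave 3 lower, since it left Grap2 and Ubash3b untested, and the mean of probes 0 higher. Of the 10 member probes and the 9 signalling genes followed through the alternatives, the block changed the calls of Cd3e and Malt1. The stricter filter also left Trat1 and Tec untested. Without CKO1 and WT1, 386 genes (139 lower, 247 higher) and 343 probes were called, and small differences changed sign: 0.0093 for Cd3g, 0.011 for Lat, -0.019 for the dimmer Cd247 and 0.067 for the dimmer Zap70 probe. With 1 sample left out, signs also changed for Cd3g (-0.14 to 0.00050), the brighter Cd247 (-0.22 to 0.47) and dimmer Cd247 probe (-0.022 to 0.17), the dimmer Zap70 probe (-0.28 to 0.25), Lat (-0.14 to 0.0036) and Tec (-0.27 to 0.021). The causes were not tested.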
